A study of Drosophila melanogaster with 20 samples.

Results

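Flies sprayed with a black pepper extract plus a low dose of pyrethrin were set against flies sprayed with a higher dose of pyrethrin alone, on arrays that carried the treated RNA in the same dye. The comparison used 8 of the 20 arrays of the study: the 4 combination arrays and the 4 pyrethrin arrays on which the treated RNA was labelled with Cy3 and the ethanol control RNA with Cy5. An effect of the dyes that is equal on both sides cancels in such a difference. All flies were adult Oregon-R females of Drosophila melanogaster, 4 to 10 days old, held in 16 h of light and 8 h of dark at 60% humidity. The combination was an ethyl acetate extract of Piper nigrum at 0.1 mg/mL with pyrethrin at 0.004 mg/mL, and the single treatment was pyrethrin at 0.04 mg/mL. Both were sprayed as 2 mL in 99% ethanol in a Potter's tower, which settles an even mist on the insects, and the controls received ethanol. RNA was taken 6 h after spraying from pools of about 240 whole flies, so each array measured 1 pooled extract against 1 pooled control extract.

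The pepper dose, the pyrethrin dose and the presence of the extract all changed together between the groups. The values below are therefore set side by side, and the contribution of each ingredient cannot be told apart. The combination arrays (replicates 2, 4, 5 and 6) used 4 different control extracts. The pyrethrin arrays used 2: number 3 served replicates 1 and 2, number 4 served replicates 4 and 5. The labels name controls by treatment in one field and by number alone in another, so whether a control number marks the same extract in both treatments is not settled, and it was fitted both ways. The running numbers in the array titles, whose meaning the labels do not give, were 224 to 228 for the combination and 185, 186, 214 and 215 for pyrethrin and so do not overlap.

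Pyrethrins hold the voltage-gated sodium channels of nerve cells open and so cause repetitive firing and paralysis. Insects clear them mainly through oxidation by cytochrome P450 enzymes and through ester cleavage. The amides of pepper fruit inhibit P450 enzymes and are known as synergists of pyrethrins, and P450 genes such as Cyp12d1-p respond to foreign compounds in flies.

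All values are log2 ratios, treated RNA over control RNA, and a difference is the combination mean minus the pyrethrin mean. The direction of the deposited ratio is not given in the sources used here. Treated over control was taken as the likely reading, because the deviations of dye-exchanged partner arrays from their group means correlated positively in 8 of 8 extracts, though in some only weakly (r = 0.0246 to 0.439, mean 0.196). The values themselves correlated negatively in 6 of the 8 (r = -0.226 to 0.293), which a dye effect or a ratio of Cy5 over Cy3 would both give. If the ratio is Cy5 over Cy3, every sign of the Cy3 comparison turns with its p-values kept. The gaps between dye orientations given below would then be differences between treated and control RNA, and the dye-corrected differences would take other values. The 8 arrays held 14970 to 16853 values each. Neighbouring duplicate spots correlated at 0.190 (pyrethrin replicate 4) to 0.688 (pyrethrin replicate 2). The SD over all values was 0.346 to 0.603 per array. Gene by gene, the combination arrays spread more than the pyrethrin arrays, with a larger SD in 1615 of 2225 symbols (72.6%) and a median SD of 0.290 against 0.193.

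No transcript passed the test. In limma, 0 of 12959 features, among them 0 of 2355 gene symbols (0% called), reached an adjusted p of 0.05, and the smallest adjusted p was 0.902. At an unadjusted p under 0.05 there were 107 symbols (4.54%), 35 higher (1.49%) and 72 lower (3.06%) in the combination, and 663 features in all (5.12%), 324 higher (2.5%) and 339 lower (2.62%). Under this threshold lay 1118 of 11865 features without combination replicate 6, a fit that kept the block for the control extract. The fits without pyrethrin replicate 2 (1151 of 12706) and without both arrays of control extract 4 (405 of 12662) had no such block. Leaving out only the block put 1062 of 12959 features under this threshold, so these fits do not show the effect of missing arrays alone. With the control number as a block shared by both treatments, 1142 (random) or 1770 (fixed) features lay there, and 0 passed the adjusted threshold. The array values did not overlap between the groups for 136 symbols (5.77%), 62 higher (2.63%) and 74 lower (3.14%). The differences of 90% of the symbols lay between -0.46 and 0.42, and 7 symbols differed by more than 1, 2 of them higher and 5 lower. The median standard error of a difference was 0.234 per symbol, and the number of arrays limits what could be detected. The genes named below had the smallest p-values or stood at the ends of gene lists, and "higher" and "lower" describe their means only.

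**Figure D1:**
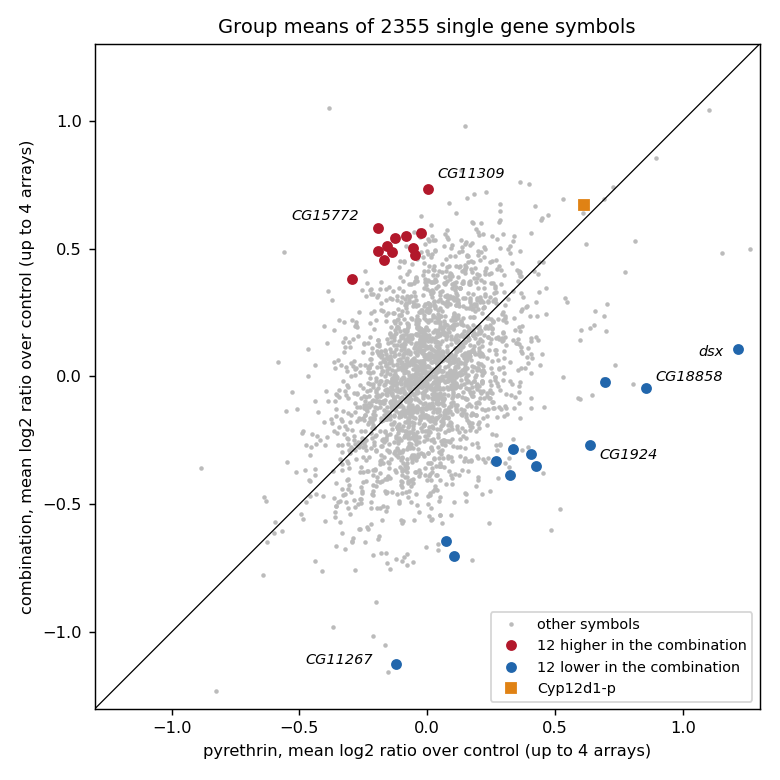
Mean log2 ratio over control of each gene symbol after pyrethrin (x axis) and after the combination (y axis), from up to 4 arrays each; the diagonal marks equal means, red and blue points are the 12 symbols with the smallest p-values in each direction. dsx lies at 1.22 after pyrethrin and 0.11 after the combination, and Cyp12d1-p at 0.61 and 0.67 lies near the diagonal.

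The lowest p-value belonged to dsx, the doublesex transcription factor at the end of the sex determination cascade, whose ratio was 2.16-fold lower in the combination. Its log2 ratios on the pyrethrin arrays were 1.23, 1.46, 1.28 and 0.89 (replicates 1, 2, 4 and 5). On the combination arrays they were 0.12, 0.31, -0.03 and 0.03 (replicates 2, 4, 5 and 6). All pyrethrin values were high, all combination values lay near 0, and the groups did not overlap. The difference was -1.11 ± 0.21 (SE, n = 4 against 4, 95% interval -1.57 to -0.65; limma adjusted p = 0.902, unadjusted p = 0.000222). Without any single array it stayed between -1.22 and -1.03. In these RNA pools of whole flies, fewer cells that express a gene and less RNA per cell cannot be told apart.

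CG1924 and CG18858, for which no role is given here, had the same form. CG1924 stood at 0.83, 0.61, 0.38 and 0.72 after pyrethrin and at -0.17, -0.08, -0.41 and -0.42 after the combination. CG18858 stood at 0.76, 0.90, 0.58 and 1.19 after pyrethrin and at 0.18, -0.23, -0.03 and -0.10 after the combination. In both genes every pyrethrin array lay above every combination array. The differences were -0.90 ± 0.21 (SE) for CG1924 and -0.90 ± 0.23 (SE) for CG18858. Both had a limma adjusted p of 0.902, as did all 24 genes chosen as the 12 with the smallest p-values in each direction.

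These 3 genes also differed strongly between the dye orientations in the pepper extracts. With pepper alone at 0.2 mg/mL and with the combination, every treated extract was also hybridised with the dyes exchanged; for pyrethrin it was not, so pyrethrin has no such value. The dye gap of a gene is how far the Cy3 value of a treated extract lies from the mean of its Cy3 and Cy5 values, averaged over the exchanged pairs; it measures the dye only if the ratio is treated over control. For dsx the dye gap was 0.86 in the pepper pairs and 0.20 in the combination pairs. On the pepper arrays with treated RNA in Cy3, dsx stood at 0.86, 0.87, 0.68 and 0.75, and on the exchanged arrays of the same extracts at -1.01, -1.0, -0.57 and -1.12. The sign of dsx turned with the dye in all 4 pepper extracts. CG1924 had dye gaps of 0.71 and -0.08 in the pepper and combination pairs, and CG18858 of 0.79 and 0.10. Among the 2172 symbols with a pepper dye gap, dsx ranked 8, CG18858 10 and CG1924 13 from the highest, which would be ranks from the lowest with the ratio read as Cy5 over Cy3. In the single combination pairs (replicates 2, 4, 5 and 6) the dsx gap was 0.28, 0.45, -0.02 and 0.09, and that of CG18858 0.32, 0.27, -0.01 and -0.16. The combination gaps were thus positive in some pairs and smaller than the pepper gaps, and they hold the Cy3 arrays by which these genes were chosen.

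**Figure D2:**
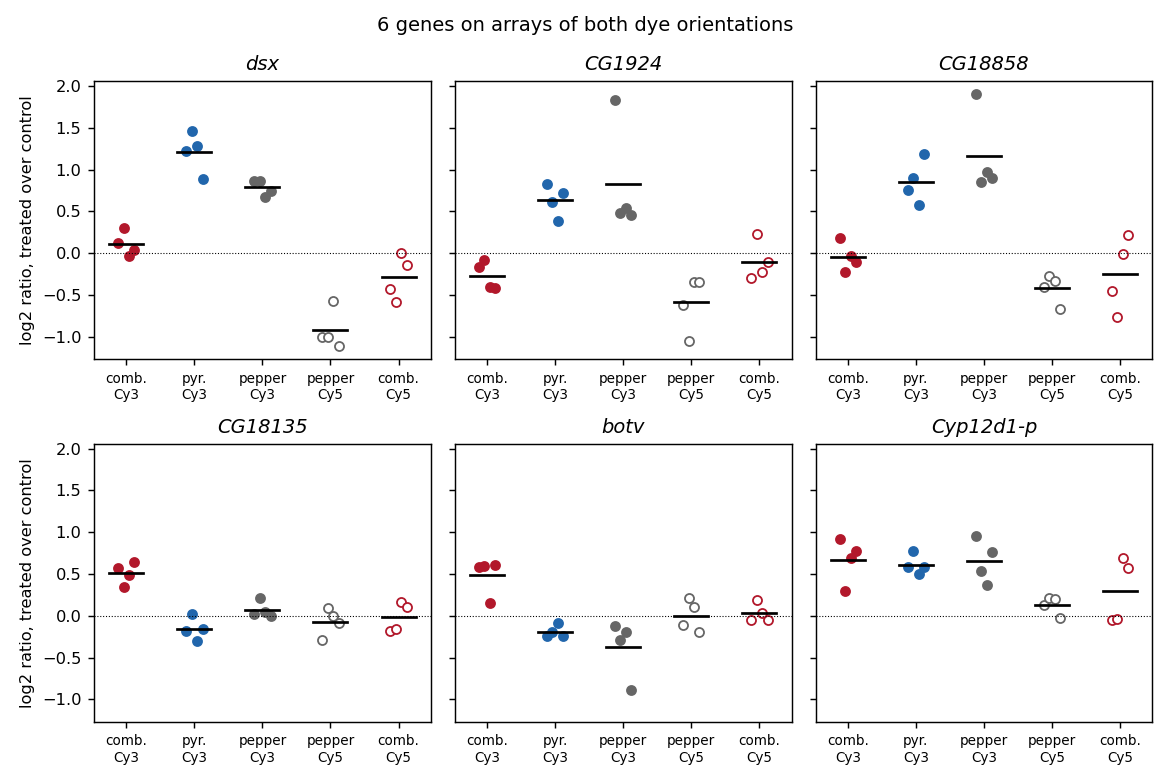
Log2 ratios of 6 genes on every array, by treatment and by the dye of the treated RNA (filled points Cy3, open points Cy5; bars are group means). dsx, CG1924 and CG18858 are high on pyrethrin and pepper Cy3 arrays and below 0 on the pepper Cy5 arrays, whereas pyrethrin has no Cy5 arrays.

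The other genes with low p-values and lower combination values included enzymes and structural proteins. Cyp1, a cyclophilin that helps proteins fold, stood at 0.43, -0.03, 0.45 and 0.45 after pyrethrin and at -0.34, -0.30, -0.35 and -0.57 after the combination. Only pyrethrin replicate 2 came near the combination arrays, and the difference was -0.71 ± 0.21 (SE). ChLD3, a chitin deacetylase-like protein, stood at 0.26, 0.21, 0.44 and 0.44 after pyrethrin and at -0.36, -0.19, -0.20 and -0.39 after the combination. Both groups of ChLD3 were tight and apart, with a difference of -0.62 ± 0.19 (SE). Idgf3, a chitinase-like growth factor of the hemolymph, stood at 0.41, 0.43, 0.48 and 0.38 after pyrethrin and at -0.24, -1.02, 0.07 and -0.21 after the combination. Its pyrethrin arrays lay closely together, its combination arrays were spread widely, and the difference was -0.77 ± 0.25 (SE).

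Zasp66, a protein of the Z-discs of muscle, stood at -0.76, -1.24, -0.42 and -0.38 after the combination and at 0.30, -0.08, -0.10 and 0.30 after pyrethrin, a difference of -0.80 ± 0.26 (SE). Nap1, a histone chaperone that assembles nucleosomes, stood at -1.11, -0.76, -0.29 and -0.42 after the combination and at 0.17, -0.04, 0.07 and 0.09 after pyrethrin, a difference of -0.72 ± 0.23 (SE). In both, every combination array lay below 0 and below every pyrethrin array. The C-type lectin gene lectin-37Da was also lower in the combination, but here every pyrethrin array lay above 0. It stood at 0.36, 0.62, 0.88 and 0.93 after pyrethrin and at 0.25, -0.41, 0.09 and -0.02 after the combination, a difference of -0.72 ± 0.23 (SE). CG13965, CG9257 and CG11267 completed these 12 genes, with differences of -0.60, -0.71 and -1.0. CG11267 was the only one of the 12 whose groups overlapped, because pyrethrin replicate 2 at -0.81 lay below combination replicate 6 at -0.57.

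The 12 genes with higher combination values had log2 differences of 0.53 to 0.78. By p-value among all symbols they ranked 4 to 48, against 1 to 15 for the 12 lower ones. The heparan sulfate polymerase gene botv stood at 0.58, 0.60, 0.16 and 0.61 after the combination and at -0.25, -0.20, -0.09 and -0.24 after pyrethrin, a difference of 0.68 ± 0.20 (SE). All combination arrays were above 0 and all pyrethrin arrays below it. GCS2alpha, the catalytic subunit of glucosidase II that trims sugars on folding glycoproteins, stood at 0.68, -0.02, 0.55 and 0.31 after the combination and at -0.16, -0.22, -0.30 and -0.51 after pyrethrin. Its difference was 0.68 ± 0.22 (SE), and its 2 spots on combination replicate 4 disagreed, at -0.69 and 0.66. The ARF exchange factor gene siz, which acts in vesicle traffic and cell fusion, stood at 0.24, 0.86, 0.36 and 0.73 after the combination and at -0.17, -0.32, 0.13 and 0.02 after pyrethrin, a difference of 0.63 ± 0.22 (SE).

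Nep4, a neprilysin that cleaves peptides, stood at 0.32, 0.71, 0.82 and 0.10 after the combination and at -0.15, -0.06, -0.09 and -0.25 after pyrethrin. The pyrethrin arrays lay closely together just below 0, and the difference was 0.62 ± 0.22 (SE). The serine protease homologue gene scaf differed by 0.66 ± 0.25 (SE), with combination arrays from 0.33 to 0.74 and pyrethrin arrays from -0.47 to 0.18. The splicing factor gene U4-U6-60K differed by 0.56 ± 0.22 (SE), with combination arrays from 0.12 to 0.75 and pyrethrin arrays from -0.30 to 0.06. CG18135 had the lowest p-value in this direction (unadjusted p = 0.00484; limma adjusted p = 0.902). It stood at 0.57, 0.34, 0.48 and 0.64 after the combination and at -0.18, 0.02, -0.30 and -0.16 after pyrethrin, a difference of 0.67 ± 0.19 (SE). The remaining 5, CG11309, CG15772, CG5139, CG15153 and CG6790, differed by 0.53 to 0.78, and CG15153 was measured on 3 of the 4 combination arrays. The groups did not overlap in 12 of these 12 genes and in 11 of the 12 lower ones, which follows from choosing the smallest p-values.

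**Figure D3:**
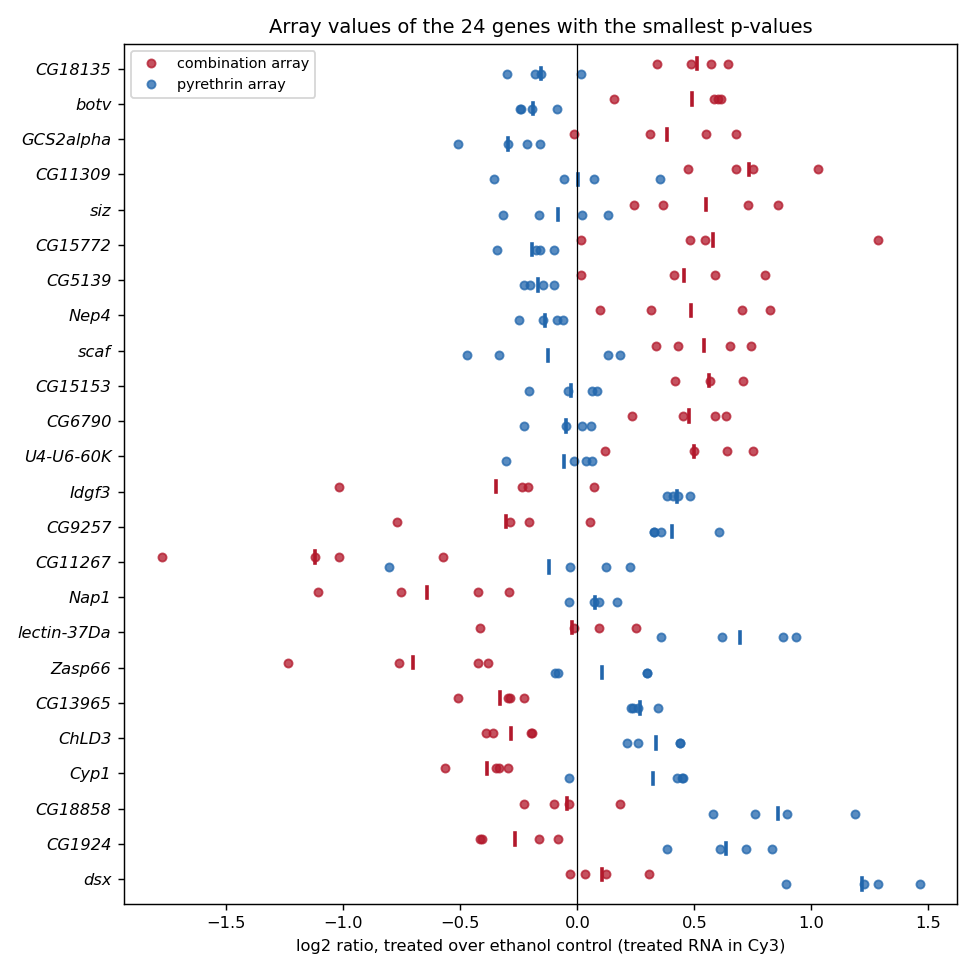
Log2 ratios of treated over control RNA on the 4 combination arrays (red) and 4 pyrethrin arrays (blue), with group means as vertical ticks. The 24 symbols are the 12 with the smallest p-values in each direction. Colours separate in every gene but CG11267, where pyrethrin replicate 2 lies at -0.81.

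Dye gaps of the 24 genes were also unequal. The pepper dye gap exceeded the combination dye gap in 12 of the 12 lower genes, with medians of 0.32 and -0.12. It was below the combination dye gap in 10 of the 11 higher genes that had one, with medians of -0.05 and 0.24. The exception, scaf, rested on 1 pepper extract, whose gap was 1.61 against -0.30 to -0.07 in the other three. Without that pair the pepper gap of scaf was -0.17 and lay below its combination gap of 0.21. The count was then 10 of 10, but 9 of 11 without pepper pair 2 or 4 and 10 of 11 without pair 3. GCS2alpha had near-equal gaps of 0.10 and 0.11, and its pepper gap was 0.16 without pair 2 or 4. The pepper gap of CG6790 rested on -0.60 in pair 2, against 0.06 to 0.19 in its other pairs. The lower genes stayed at 12 of 12 without any 1 pepper pair. The combination gaps contain the same Cy3 arrays as the comparison, so their direction is partly set by the choice of genes. On the exchanged arrays of the same combination extracts, the means of the 12 higher genes were -0.17 to 0.16, against 0.38 to 0.73 on the Cy3 arrays. botv, for example, averaged 0.49 on the Cy3 arrays and 0.03 on the exchanged ones, and CG18135 0.51 and -0.01. CG11267 averaged -1.12 on the Cy3 arrays and 0.34 on the exchanged ones. For these genes the 2 dye orientations of the same extracts gave different means.

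If the pyrethrin arrays had the dye effect of the pepper pairs, and the combination was averaged over both orientations, the differences would be smaller for 22 of the 23 genes that can be computed. That calculation was chosen after seeing the data. The genes were chosen by their differences on the Cy3 arrays, so smaller values are partly set by that choice. The share of smaller differences over all symbols is not given here. dsx would differ by -0.45 (limma adjusted p = 0.328), CG18858 by -0.22, CG1924 by -0.11 and ChLD3 by -0.15, botv by 0.26 and CG15153 by 0.11. GCS2alpha at 0.67, CG18135 at 0.47 and Cyp1 at -0.45 kept more of their size, and scaf was larger at 0.74, but 0.29 without the pepper pair of replicate 1. Without the pepper pair of replicate 2 or 4, GCS2alpha would be 0.72, larger than its 0.68 on the Cy3 arrays, and 21 of 23 differences would be smaller. CG6790 would be 0.20, but 0.44 without the pair of replicate 2. If the pyrethrin arrays had instead the dye effect of the combination pairs, every difference would be as on the Cy3 arrays. With the dye effect averaged over all 8 exchanged pairs dsx would differ by -0.78. With the ratio read as Cy5 over Cy3 and the same pepper pairs, the comparison would take the dye gaps of the combination as its treatment effect, and 34 of 11526 features would pass in limma, 6 of them with a symbol. Among these, with signs as on the Cy3 arrays, dsx would differ by -1.09 (limma adjusted p = 0.0128), ocn by -1.14 (limma adjusted p = 0.00985) and Idgf3 by -0.67 (limma adjusted p = 0.0494). This calculation was also chosen after seeing the data, and neither includes the error of its correction. Which dye effect the pyrethrin arrays had was not tested. Over all 2169 symbols with both values, the pepper and combination dye gaps correlated at r = 0.496, and the pepper gap correlated at r = -0.05 with the difference over 2172 symbols. The strength of the pepper dye pattern on single Cy3 arrays, as the slope of array values on pepper dye gaps, was 0.468, 1.10, 0.613 and 0.0205 for combination replicates 2, 4, 5 and 6, and 0.427, 1.08, 0.420 and 0.519 for pyrethrin replicates 1, 2, 4 and 5. These slopes overlapped between the treatments but were unequal within each.

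**Figure D4:**
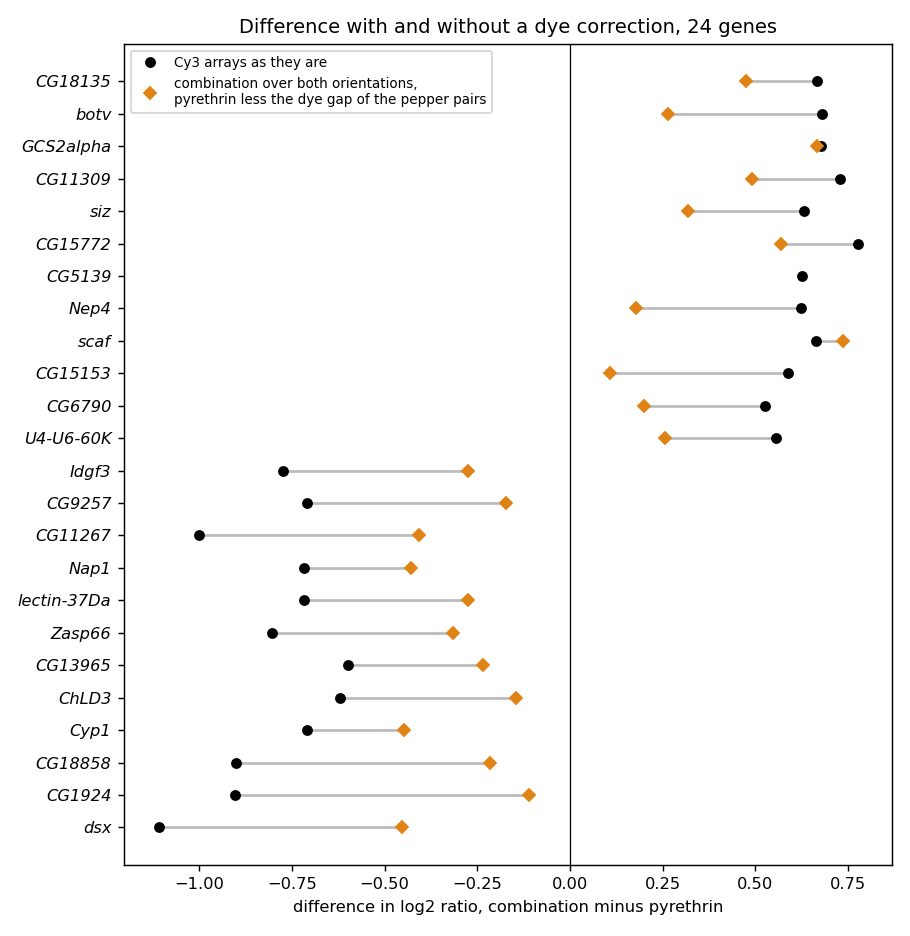
Difference in log2 ratio, combination minus pyrethrin, of 24 symbols, the 12 with the smallest p-values in each direction. Black points are from the Cy3 arrays alone. Orange diamonds have the combination averaged over both dye orientations and pyrethrin corrected by the dye gap of the pepper pairs. CG5139 has no pepper dye gap. No gene changes sign, and dsx moves from -1.11 to -0.45.

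The cytochrome P450 genes were the enzymes of most interest for a pyrethrin and a P450 inhibitor. Cyp12d1-p was above the control on all 8 arrays, which all carried the treated RNA in Cy3. It stood at 0.92, 0.29, 0.69 and 0.78 after the combination and at 0.59, 0.77, 0.50 and 0.59 after pyrethrin. The pyrethrin values lay within the range of the combination values, with means of 0.67 ± 0.27 (SD, n = 4) and 0.61 ± 0.12 (SD, n = 4). Its difference was 0.06 ± 0.21 (SE; 95% interval -0.40 to 0.52; limma adjusted p = 0.975), and the exact two-sided permutation test over 70 regroupings of the arrays gave p = 0.714, where 0.0286 is the smallest value it can give. The interval holds differences of either sign, and the difference was -0.16 after quantile normalisation and -0.15 with the arrays scaled to one spread. Cyp12d1-p averaged 0.66 on the pepper Cy3 arrays and 0.13 (-0.02 to 0.21) on the exchanged pepper arrays. On the exchanged combination arrays it averaged 0.30 (-0.05 to 0.69). Its dye gaps were 0.26 in the pepper and 0.19 in the combination pairs, and the part of the dye in its height on the 8 arrays was not tested. Cyp6a8 and Cyp9b2 were not among the annotated symbols of the array.

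Of the 4 P450 genes, 3 were higher in the combination, with a median difference of 0.14 beside 0.00 over all symbols, of which 50.7% were higher. After quantile normalisation 2 of the 4 were higher with a median of 0.03, and the median was 0.05 with the arrays scaled to one spread. Cyp4g15 stood at 0.30 and Cyp4ac1 at -0.03, and Cyp4ac1 rested on scattered combination arrays, 0.84 in replicate 2 and -0.37 to -0.20 in the other three. The glutathione S-transferases, a family that attaches glutathione to toxins, had 1 of 3 members higher (GstZ2 at 0.43, GstE2 at -0.07; median -0.05), and the median would be 0.24 with the pepper dye effect subtracted from pyrethrin. All 7 UDP-glycosyltransferases, which add sugars to small molecules, were slightly lower in the combination, from Ugt35A1 at -0.18 to Ugt35D1 at -0.02, with a median of -0.07, though Ugt35D1 was 0.10 after quantile normalisation and 0.16 with the arrays scaled to one spread. In these 3 lists 0 genes reached an unadjusted p of 0.05, and in 0 genes did the groups separate, beside 4.54% and 5.77% of all symbols. In lists this small, counts of 0 are near those shares.

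For the target of pyrethrin, the nerve cell, 12 genes of voltage-gated channels and excitability were measured, 4 higher and 8 lower, with a median of -0.15; para, the sodium channel itself, was not among the annotated symbols. Shal, a potassium channel of the A-type current, was lowest at -0.67 ± 0.30 (SE). Its combination arrays lay at -0.67, 0.23, 0.00 and -0.98 and its pyrethrin arrays at 0.68, 0.26, 0.13 and 0.20, so that the groups overlapped. Ih, the hyperpolarisation-activated cation channel, was highest at 0.24. Of 7 transmitter receptors 1 was higher, Nmda1, a glutamate receptor subunit, at 0.39, and the median was -0.02 (0.00 with no centring of the arrays). This count depended on the scaling. With no centring 4 of 7 were higher, and 3 of 7 after quantile normalisation or with the arrays scaled to one spread. The serotonin receptor gene 5-HT1A was lowest at -0.68 ± 0.23 (SE, unadjusted p = 0.0135, limma adjusted p = 0.902), with combination arrays at -0.45, -0.38, -0.03 and -0.74 and pyrethrin arrays at 0.04, 0.56, 0.26 and 0.25. The groups of 5-HT1A did not overlap. Its dye gaps were 0.31 in the pepper and -0.18 in the combination pairs, and it averaged -0.04 on the exchanged combination arrays. The synaptic vesicle release genes had 6 of 7 members higher, led by complexin, cpx, at 0.41, with lap, a clathrin adaptor, lowest at -0.09 and a median of 0.14. With the pepper dye effect subtracted from pyrethrin the medians of the channels and of the vesicle genes would be 0.03 and -0.02, on the other side of 0.

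Protein folding genes were listed by compartment. The endoplasmic reticulum list held genes of import, folding and glycan trimming, and also the regulators PEK at -0.23 and crc at 0.33. Of its 10 genes 7 were higher, with a median of 0.20. This median ran from 0.06 without both pyrethrin arrays of control extract 4, over 0.07 without combination replicate 4, to 0.52 with the control number as a fixed block. GCS2alpha led the list. Sec61beta, a subunit of the import channel, was lowest at -0.66 ± 0.33 (SE), with combination arrays at -0.85, -1.32, -0.72 and 0.22. The cytosolic and mitochondrial heat shock proteins and chaperones had 4 of 11 members higher and a median of -0.06. This median was -0.19 after quantile normalisation, and with the pepper dye effect subtracted from pyrethrin it would be 0.11 with 9 of 11 higher. Hsp68, a stress-inducible member of the Hsp70 family, was the lowest at -0.76 ± 0.42 (SE), with 0.20, 1.24, 0.73 and -0.18 after the combination and 0.78, 2.21, 1.16 and 0.90 after pyrethrin. These groups overlapped. The dye gap of Hsp68 was 1.14 in the pepper pairs and 0.34 in the combination pairs, and with the pepper dye effect subtracted from pyrethrin its difference would be 0.04. Droj2, a DnaJ co-chaperone, was the highest at 0.37. The 14 proteasome genes had 5 members higher and a median of -0.05 (0.01 with that subtraction), from Rpn3 at -0.46 to Rpn1 at 0.27. They included the paralogs Prosalpha4T1, Prosalpha4T2, Prosbeta2R2, Prosbeta4R2, Prosbeta5R1 and Rpt4R. The 19 genes of Golgi and vesicle tethering had 9 higher and a median of -0.01 (0.00 with no centring), and besides siz the end of this list was Vps51, a subunit of a tethering complex, at -0.53 ± 0.20 (SE). Vps51 stood at 0.40, 0.40, 0.31 and 0.51 after pyrethrin and at 0.04, -0.11, 0.03 and -0.46 after the combination, without overlap, and its dye gaps of -0.12 and -0.04 were small.

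All 10 nuclear genes listed for oxidative phosphorylation were lower in the combination, with a median of -0.15. They ran from ATPsynGL, related to a subunit of ATP synthase, at -0.46 ± 0.23 (SE) to SdhCL at -0.03. With the arrays scaled to one spread 3 of the 10 were higher, SdhCL among them at 0.04. With the pepper dye effect subtracted from pyrethrin 3 of 10 would be higher, and with the replicate number as a fixed block 2 of 10 were. After quantile normalisation 0 of 10 were higher. ATPsynGL, COX6AL, COX7AL, SdhBL, SdhCL and UQCR-11L carry the names of subunit-like genes, and the others were ND-13A, ND-51, ND-B8 and COX7C. The median of the 10 genes on single arrays was -0.51 to -0.03 after the combination and -0.30 to -0.04 after pyrethrin. The groups thus overlapped, and 0 of 10 reached an unadjusted p of 0.05, which in so short a list is near the 4.54% of all symbols. The list median ran from -0.07 without combination replicate 4 to -0.33 with the control number as a fixed block. The 7 genes of glycolysis, trehalose and glycerol phosphate had 4 higher and a median of 0.01, which was -0.12 after quantile normalisation and -0.09 with the arrays scaled to one spread. Tps1, which makes trehalose, was lowest at -0.89 ± 0.32 (SE), with combination arrays at -0.51, -1.62, -0.70 and -0.05 and pyrethrin arrays at 0.47, 0.06, 0.04 and 0.13. The groups of Tps1 did not overlap, and its dye gaps were 0.22 in the pepper and -0.24 in the combination pairs. Gpdh3, a glycerol-3-phosphate dehydrogenase, was highest at 0.52. The lipid and fasting response genes had 8 of 10 members higher and a median of 0.11, with CG5966 at 0.59 and the kinase Sik2 at -0.44.

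The antioxidant enzymes had 3 of 7 members higher and a median of -0.27. Ccs, the copper chaperone of superoxide dismutase, was lowest at -0.62 ± 0.23 (SE), with -0.65, -1.18, -0.46 and -0.59 after the combination and -0.07, -0.32, -0.13 and 0.13 after pyrethrin. Every combination array of Ccs lay below every pyrethrin array. Its dye gaps were -0.17 in the pepper and -0.46 in the combination pairs, and it averaged 0.21 on the exchanged combination arrays. Gclm, which promotes glutathione synthesis, was highest at 0.30, and the list median would be 0.03 with the pepper dye effect subtracted from pyrethrin. Of 6 stress and damage signalling genes 4 were higher, with a median of 0.23. The JNK phosphatase gene puc, itself a target of the JNK pathway, was highest at 0.50 ± 0.21 (SE, unadjusted p = 0.0337, limma adjusted p = 0.902). It stood at 0.26, 0.44, 0.35 and 0.32 after the combination and at 0.00, 0.17, -0.51 and -0.32 after pyrethrin, again without overlap, and its dye gaps were -0.07 and 0.05. p53 was lowest at -0.34. In the calcium store list the entry channel gene Orai was lowest at -0.49 ± 0.21 (SE), in a list with 3 of 7 members higher and a median of -0.02 (0.00 with no centring, 0.02 with the pepper dye effect subtracted from pyrethrin).

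Beside dsx, the lists of sexual and reproductive genes held 8 sex determination and oogenesis genes and 6 male accessory gland and testis genes, the latter included as markers of male tissue in samples labelled female. The first had 1 of 8 members higher and a median of -0.26. In it tra, the splicing factor upstream of dsx, differed by -0.51 and yl, the yolk protein receptor, by -0.49, genes singled out after their values were seen, while Sxl at -0.06 and fru at -0.04 lay near 0 and exu, which localises maternal RNA, was highest at 0.07. The male list had 2 of 6 higher and a median of -0.27, and its medians on single arrays overlapped, -0.51 to 0.16 after the combination and -0.20 to 0.13 after pyrethrin. The testis gene ocn was lowest at -0.84 ± 0.29 (SE, unadjusted p = 0.0141, limma adjusted p = 0.902), with 1.02, 0.78, 0.62 and 0.79 after pyrethrin and 0.26, -0.89, 0.25 and 0.25 after the combination. The groups of ocn did not overlap, and 1 low array carried much of the combination mean. Its dye gaps were -0.16 in the pepper and -0.33 in the combination pairs, and it averaged 0.62 on the exchanged combination arrays. The sperm gene dj was highest at 0.06, and the seminal fluid genes Acp36DE and Acp53C14a differed by -0.35 and -0.18. Ratios give no level, so how much male RNA any pool held, and its part in these values, was not tested.

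Other tissues were covered by marker lists. The hemocyte and immune genes had 1 of 8 members higher and a median of -0.20, with Lectin-galC1 lowest at -0.80 ± 0.34 (SE) beside lectin-37Da, while the blood cell markers NimC1 at -0.01 and Pxn at -0.02 lay near 0. Lectin-galC1 overlapped between the groups, at -1.0, -1.94, -0.88 and -0.23 against -0.09, -0.48, -0.10 and -0.20. The muscle proteins had 3 of 9 higher and a median of -0.15, from Zasp66 to paramyosin, Prm, at 0.48, and the median would be 0.09 with the pepper dye effect subtracted from pyrethrin. Odorant-binding and chemosensory genes had 10 of 22 higher and a median of -0.14, from Obp99a at -0.72 to Obp28a at 0.32. Phototransduction genes of the eye had 4 of 6 higher and a median of 0.05, led by the lipase gene inaE at 0.54. The 15 cuticle and chitin genes had 8 higher and a median of 0.00 (-0.01 after quantile normalisation, -0.04 with that subtraction) with Idgf3 and ChLD3 at the low end and obst-A, a chitin-binding protein, at 0.42. Circadian clock genes had 2 of 7 higher (median -0.07; Pdp1 at 0.29, Pdfr at -0.60) and cytosolic ribosomal proteins 2 of 6 (median -0.16; RpS12 at 0.25, RpS15Ab at -0.64). No esterase or ABC transporter of the lists was among the annotated symbols. The part of any of these tissues in the comparison was not tested.

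**Figure D5:**
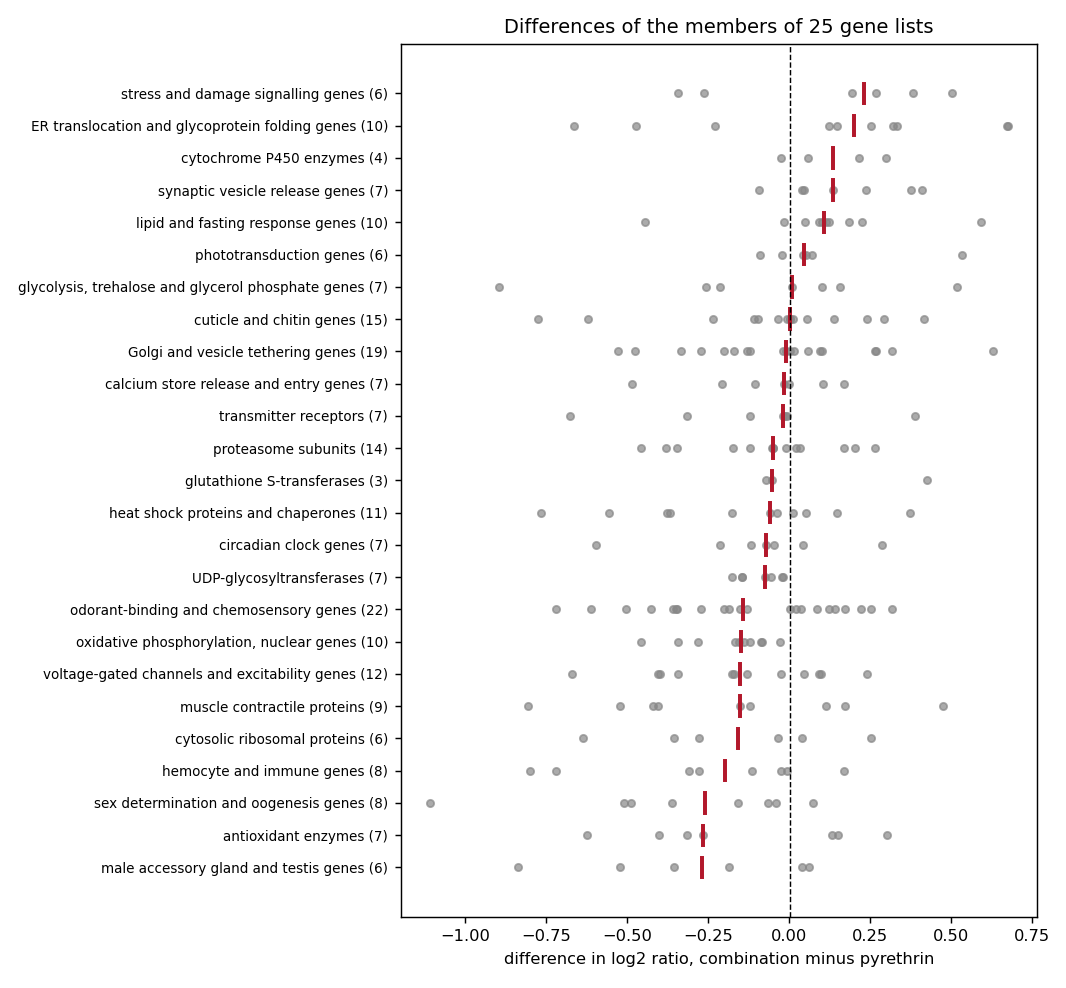
Difference in log2 ratio, combination minus pyrethrin, of each measured member (grey points) of 25 gene lists, with list medians in red, the number of members in brackets and the median of all symbols as a dashed line. In the main fit shown, all points of the UDP-glycosyltransferases and of oxidative phosphorylation lie below 0, and most lists spread over both sides. With the arrays scaled to one spread 1 of 7 and 3 of 10 of these genes were higher.

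Of the 10604 features without a single gene symbol, 4 with the smallest p-values are given by spot number. ID6127 averaged 0.39 after the combination and -0.52 after pyrethrin, and ID3502 averaged 1.39 and -0.38 with one combination array missing. ID917 averaged -0.67 and 0.59, and ID7435 -0.53 and 0.42. In all 4 the groups did not overlap, which largely follows from choosing the smallest p-values, and the limma adjusted p was 0.902 for each. Among all 12959 features the groups did not overlap in 353 that were higher and 387 that were lower.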

How the data were processed

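Transcripts were measured on spotted 2-colour cDNA arrays with 16896 spots. The deposited values are log2 ratios made by the authors; base 2 was inferred, since the largest value was 14.3 in size and a natural log ratio of 16-bit signals stays under 11.1. How the authors normalized them is not given in the sources used here. Signal intensities were not used, and the number of arrays limits the precision. Groups were taken from the labels; 2 reverse arrays of the pepper extract, used only for dye gaps, carry titles of another study.

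Each array's median was subtracted. Spots of one gene symbol were averaged (5666 spots, 2377 symbols, all matched to RefSeq); 152 spots with several symbols and 11078 with none were kept by number. Symbols follow the platform annotation, which can be old. Features measured on at least 3 of 4 arrays per group were fitted in limma 3.58.1 (R 4.3.3, statmod 1.5.0) using treatment means, with the control extract within a treatment as a random block (correlation 0.341). Moderated tests were two-sided, with Benjamini-Hochberg adjustment over 12959 features and a threshold of 0.05; the script was tested on simulated data. The labels do not say that extracts came from separate cultures, so p-values measure the spread between these extracts and arrays. Dye gaps needed at least 3 of 4 exchanged pairs.

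Members and gene lists were chosen with earlier results of these data known, and 4 wrong name matches were removed from the lists after values were seen. The text names the 12 symbols with the smallest p-values in each direction, the highest and lowest member of each list, Cyp12d1-p and 4 unannotated spots. Lists were described by counts and medians without a set test. Alternatives covered scaling, filters, spot averaging, blocks, array weights, dye corrections and leaving out arrays.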

Additional observations from a re-analysis of the deposited data

Results flagged for a closer look

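In 7 of 143 groups of 4 arrays, among the genes named here, 1 array lay far from the other three by Dixon's test; chance flags about 1 in 20 groups. On combination arrays these were botv in replicate 5 at 0.16 (the others 0.58 to 0.61), Cyp4ac1 in replicate 2 at 0.84 (the others -0.37 to -0.20) and ocn in replicate 4 at -0.89 (the others 0.25 to 0.26). On pyrethrin arrays these were Cyp1 in replicate 2 at -0.03 (the others 0.43 to 0.45), CG9257 in replicate 1 at 0.61 (the others 0.33 to 0.36), ATPsynGL in replicate 4 at 0.42 (the others -0.12 to -0.07) and Sec61beta in replicate 2 at -0.43 (the others 0.08 to 0.17).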

How the results depend on the processing

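With 30 alternatives, 4 of them dye corrections added after seeing the data, limma made 0 calls in all but 2, both added. One, which averages the combination over both orientations and subtracts the dye effect of the pepper pairs from pyrethrin, called 8 of 11526 features, all lower and all without a symbol (smallest adjusted p = 0.00291); the other, which reads the ratio as Cy5 over Cy3, called 34 of 11526, 13 higher and 21 lower, dsx (adjusted p = 0.0128), ocn and Idgf3 among them. Both leave out the error of the correction. Outside these the smallest adjusted p of dsx was 0.0547, with the arrays scaled to one spread. Counts at an unadjusted p under 0.05 ran from 147 of 2355 with symbols alone to 2084 of 11526 with the ratio read as Cy5 over Cy3. The numbers tested differ, so these counts do not rank the settings by share. Of 12959 features, where the main fit had 663, the count was 1042 after quantile normalisation, 1069 with arrays scaled to one spread and 1062 without a control block. Of the same 12959 it was 1142 and 1770 with the control number as a random or fixed block, and 1283 with array weights. It was 431 of 7907 with unannotated neighbours averaged and 1815 of 12810 with the dye effect of the combination pairs. With the dye effect of all or of the pepper pairs it was 1225 of 12639 and 1193 of 11526. Deviations of same-numbered replicates correlated at r = -0.084, -0.0918 and -0.00184 for numbers 2, 4 and 5. Those of differently numbered replicates correlated at r = -0.31 to 0.289. So few values cannot show whether the numbers pair the arrays. The replicate block gave 0 calls and 714 of 12959 features at an unadjusted p under 0.05. Fits without a pyrethrin array had no control block, because its correlation could not be estimated. The 12 genes with the smallest p-values in each direction kept their sign in all 713 values. Over the 70 named genes 53 of 2065 values turned sign, in 15 genes, the cause of which was not tested. The Cyp12d1-p difference was -0.16 after quantile normalisation, -0.15 with scaled arrays, -0.12 with the fixed control block, -0.0091 without control extract 4 and -0.024 to 0.19 without single arrays. Cyp4ac1 was 0.0017 with scaled arrays, 0.090 with array weights, 0.078 with the replicate block, 0.074 without control extract 3 and -0.31 to 0.10 without single arrays. GstE2 was 0.083 and 0.24 with the dye effect of all and of the pepper pairs, 0.027 without control extract 4 and -0.40 to 0.17 without single arrays. Ugt35D1 was 0.10 after quantile normalisation, 0.16 with scaled arrays, 0.049 and 0.12 with these dye effects and -0.23 to 0.16 without single arrays. SdhCL was 0.038 with scaled arrays, 0.19 with the fixed control block, 0.14 with the replicate block and -0.13 to 0.10 without single arrays. lap was 0.019 and 0.018 with these blocks and -0.19 to 0.0019 without single arrays. dj was -0.23 and -0.52 with the dye effect of all and of the pepper pairs and -0.0030 to 0.12 without single arrays. Rh7 was 0.049 and 0.19 with these and 0.0048 without control extract 4. With the pepper dye effect Hsp68 was 0.039, Rpn3 0.045 and p53 0.048. Ih was -0.035 with the median of spots, and obst-A -0.011 with the fixed control block. Read as Cy5 over Cy3, Cyp12d1-p was -0.030, Cyp4ac1 0.038, Ih -0.081, lap 0.021, SdhCL 0.71, dj -0.028, RpS12 -0.081 and Orai 0.040.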
